A study of Mus musculus with 6 samples.

Results

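Neurexins, neuroligins and leucine-rich repeat transmembrane proteins (the products of the Lrrtm genes) are cell adhesion proteins that organise synapses. The genes described are Nrxn2, Nrxn3, Nlgn1, Nlgn2, Nlgn3, Lrrtm1, Lrrtm2, Lrrtm3 and Lrrtm4. Their members were taken as every probe set, a group of short probes against 1 transcript, that the annotation of the Affymetrix mouse genome array ties to exactly 1 gene symbol, that symbol being one of the 9. This gave 26 probe sets of 9 genes, of the 45037 probe sets that are not array controls and the 18193 genes that have a probe set of their own. The arrays carried RNA of cells labelled DGCs, from what is known of the study dentate granule cells, isolated from the hippocampus of transgenic mice, whose series title calls them HuD overexpressors, and of control mice. Each group has 3 arrays from 2 mice: 1 array of mouse 1 and 2 arrays of mouse 2. All 6 are also labelled with a preservation treatment. Strain, age, sex, the promoter of the transgene and the genotype of the controls beyond that word were not given in the sources used here.

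Neurexins sit mainly in the presynaptic membrane. Neuroligins and Lrrtm proteins sit in the postsynaptic membrane, bind neurexins across the cleft and gather receptors and scaffolds behind them. Nlgn1 is known from excitatory synapses, Nlgn2 from inhibitory ones, Nlgn3 from both kinds, and the Lrrtm proteins from excitatory ones. In the mouse dentate gyrus, Lrrtm4 is known for its role in excitatory synapses on granule cells. HuD, encoded by Elavl4, binds and stabilises neuronal mRNAs.

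The values are linear intensities in array units, scaled by the authors so that every array has the same 2% trimmed mean, 150.0. Values under 10.1, the 25th percentile of all intensities, have no order and were set to that floor before log2 was taken. The 3 Elavl4 probe sets lay between 35.8 and 93.3 on the transgenic arrays and between 40.6 and 122 on the control arrays, with log2 differences of -0.73 to -0.15 (transgenic minus control) and none called. Higher Elavl4 was thus not seen on the arrays labelled transgenic, and whether these probe sets read the transgene is not given, so transgenic and control are used here as the labels' words only. Of 8 granule cell markers, 8 were above the floor on every array, with a summed intensity of 19543 to 20028 on the transgenic and 19266 to 22191 on the control arrays. Markers of other cell types were present too. Oligodendrocyte markers, 6 of 7 above the floor on every array and the myelin gene Mog at the floor on 3, summed to 5320 to 7898 on the transgenic and 4631 to 11386 on the control arrays, the last on control mouse 1. Astrocyte markers, 7 of 7 above it, summed to 2892 to 3812 on the transgenic and 3199 to 5171 on the control arrays. Microglia markers, 5 of 6 above it, summed to 2101 to 2657 on the transgenic and 2161 to 3137 on the control arrays, and interneuron markers, 6 of 7 above it and Sst at it on 1 array, to 2346 to 2487 on the transgenic and 2227 to 2767 on the control arrays. Of the tested markers, 6 of 6 for oligodendrocytes and 6 of 6 for astrocytes had lower means in transgenic mice (medians -0.73 and -0.37). So had 6 of 7 for interneurons and 4 of 4 for microglia (medians -0.40 and -0.31), with 0 called. Gad1, the brightest interneuron marker, went the other way (0.11). Sst passed the filter on dim probe sets, a mean log2 intensity over 4.92, only through the control group (means of 4.39 in transgenic and 5.85 in control mice). Pyramidal cell markers were 2 higher and 4 lower (median -0.041, 0 called). Of these, Neurod6 and Fibcd1 also passed the filter only through the group where they are high. Their means in transgenic and control mice were 4.70 and 5.55 for Neurod6, and 5.92 and 4.90 for Fibcd1. Vascular markers, with Pecam1 at the floor on every array, summed to 108 to 134 on the transgenic and 132 to 207 on the control arrays. The 2 tested were 1 higher (Kdr, 0.35) and 1 lower (Cldn5, -1.15), with a median of -0.40 and 0 called. For transgenic mouse 1, transgenic mouse 2 array 1 and control mouse 1 the array's title includes re-LCM, a tag that the sources used here do not explain. The ratio of the 3' to the 5' control probe sets, a sign of RNA integrity and amplification, differed by the tag. For beta-actin it was 14.8 to 19.4 on the arrays with the tag and 22.7 to 27.8 on those without it, and for Gapdh 6.46 to 7.06 and 7.87 to 8.63. Its part in the differences within tagged and untagged arrays given below was not tested. The control arrays described as mouse 2 are titled control 1 and control 2, so labels may disagree on the mouse.

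Every one of the 9 genes was measured well above the floor in both groups, and none differed between transgenic and control mice by more than the test could tell from the spread between these 2 mice per group. The leading probe set of a gene, that of the highest mean over the 6 arrays, was above the median probe set of its array on 6 of 6 arrays for each gene, and the lowest of these intensities was 192. In total 20 of the 26 probe sets, from 9 of 9 genes, passed the filter on dim probe sets and were tested. Of these, 9 were higher and 11 lower in transgenic mice, with a median log2 difference of -0.063 beside -0.0036 over the 22518 probe sets tested. With limma and Benjamini-Hochberg adjustment over all of them, 0 of 20 were called (adjusted p from 0.993 to 0.999), against 0% of all probe sets. At an unadjusted p under 0.05 there were again 0 of 20, against 4.42% of all. In bulk RNA, fewer cells of a type and less RNA per cell cannot be told apart.

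**Figure D1:**
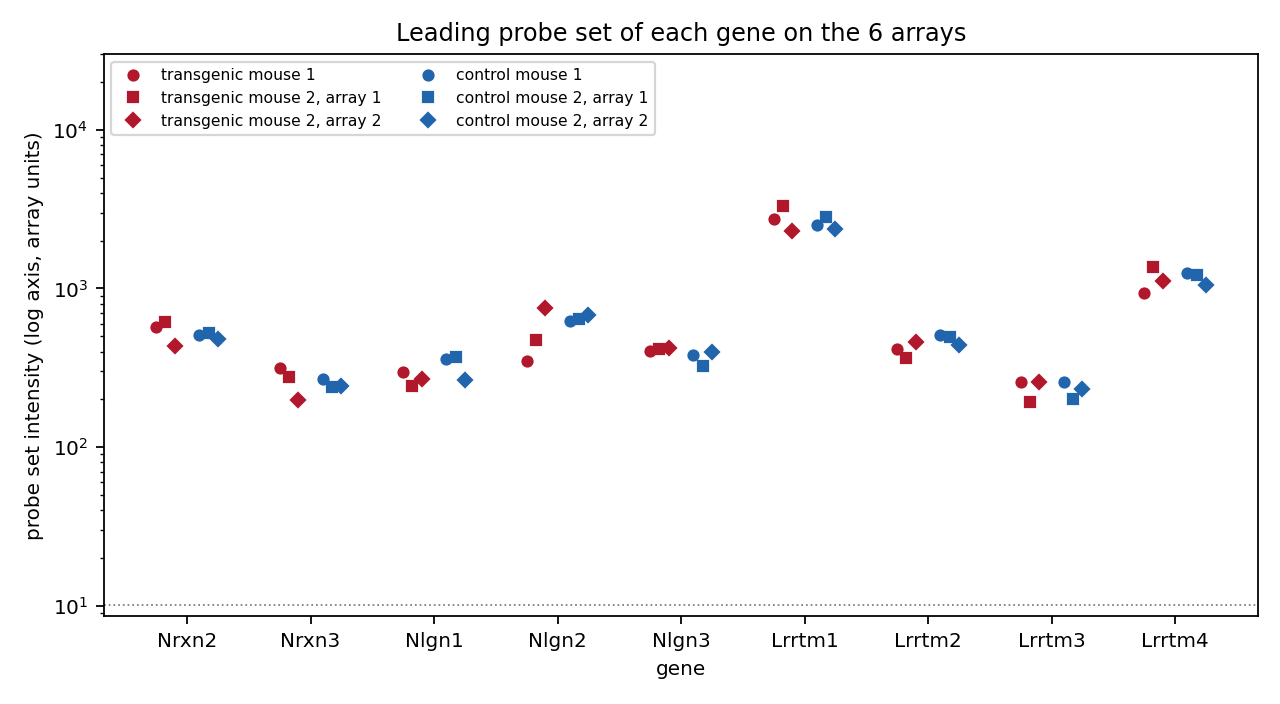
Intensity (log axis, array units) of the leading probe set of each gene on the 3 transgenic arrays (red, left) and the 3 control arrays (blue, right), with mouse 1 as circles and the arrays of mouse 2 as squares and diamonds. The dotted line is the floor of 10.1. The groups overlap for each gene but Nlgn3, and levels of different probe sets cannot be compared with each other.

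The neurexin genes showed nearly equal levels at their leading probe sets. Values are given for mouse 1, then mouse 2 array 1 and array 2. Nrxn2 (1435907_at) had intensities of 569.8, 613 and 435 on the transgenic arrays, against 509, 523 and 477 on the control arrays. The highest and the lowest of the 6 were both arrays of transgenic mouse 2, so the groups overlapped. The mean log2 intensity was 9.08 ± 0.10 in transgenic and 8.98 ± 0.02 in control mice (SD, n = 2 mice each), a log2 difference of 0.11 (95% interval -0.33 to 0.54). A second Nrxn2 probe set (1455499_at), designed on the same sequence record, was at the floor on 5 arrays and reached 21.5 on transgenic mouse 1.

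Nrxn3, known in the mouse for presynaptic roles at several kinds of synapse, has 5 probe sets, and these disagreed. The leading one (1433788_at) read 313, 277 and 198 on the transgenic arrays, against 267, 237 and 244 on the control arrays. Transgenic mouse 2 held the lowest value, on array 2, and the groups overlapped (log2 difference 0.094, 95% interval -0.47 to 0.65). A second (1439629_at) read 235, 228 and 278 on the transgenic arrays, against 142, 207 and 230.1 on the control arrays. Its difference of 0.47 (SE 0.26) was the largest positive one among the tested probe sets, and control mouse 1 stood below the other 5 arrays. Without control mouse 1 the difference was 0.16, and without control mouse 2 it was 0.78. Control mouse 1 was the array with the highest oligodendrocyte, astrocyte, interneuron, pyramidal cell and vascular marker sums. The microglia sum was highest on control mouse 2 array 1 (3137, against 3073 on control mouse 1). The granule cell sum was lowest on control mouse 1 (19266). The part of these markers in the difference was not tested.

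A dimmer Nrxn3 probe set (1438193_at) went the other way. It read 70.3, 49.8 and 36.7 on the transgenic arrays, against 76.0, 73.9 and 80.2 on the control arrays. The 3 transgenic arrays all lay below the 3 control arrays, by a log2 difference of -0.48 (SE 0.28, limma adjusted p = 0.993, n = 2 mice each). The arrays of transgenic mouse 2 carried this difference: it was -0.84 without transgenic mouse 1 and -0.12 without transgenic mouse 2. The 2 arrays of that mouse themselves differed by 0.44. Another (1456137_at) read 145, 87.1 and 171 on the transgenic arrays, against 161, 106 and 121 on the control arrays, with a difference of -0.021. The fifth (1432931_at) was at the floor on the 3 control arrays and on transgenic mouse 2 array 1, and read 18.1 and 12.3 on the other transgenic arrays. Which Nrxn3 transcripts each probe set reads was not examined.

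**Figure D2:**
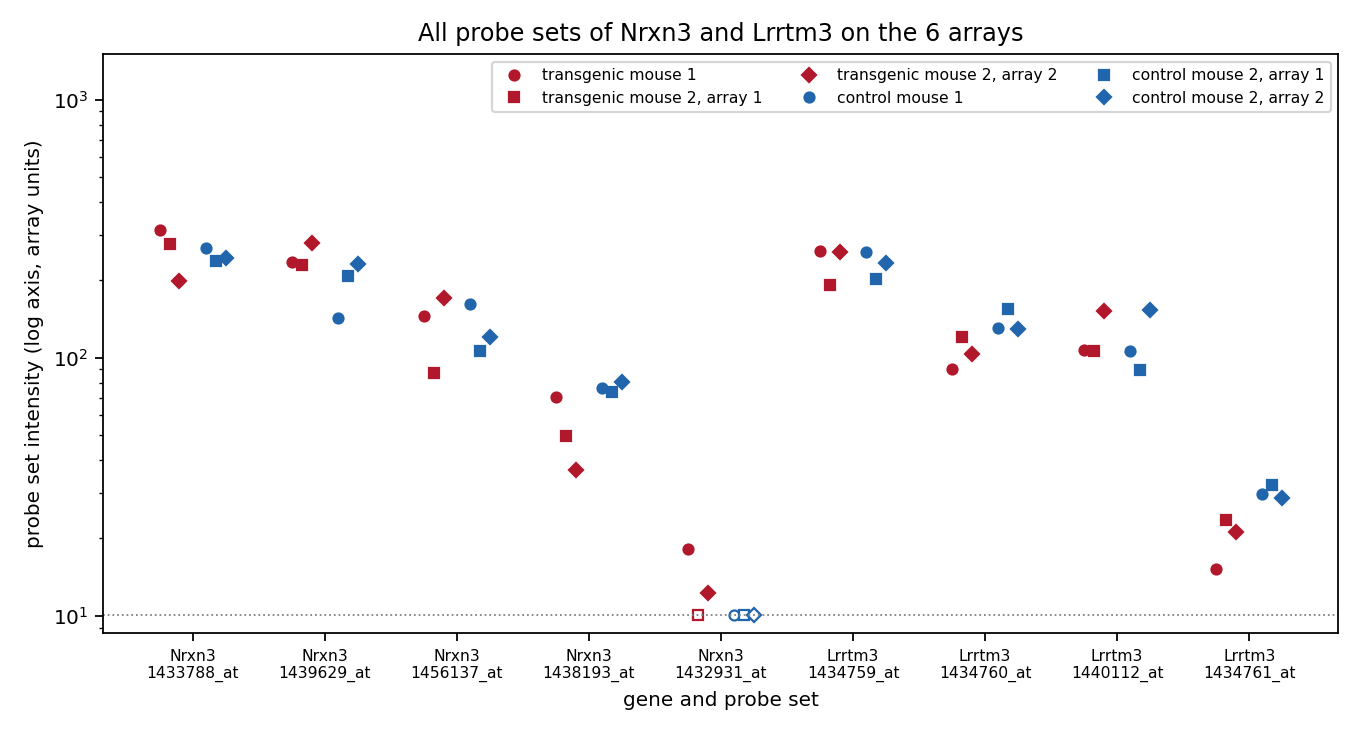
Intensity (log axis, array units) of every probe set of Nrxn3 and Lrrtm3 on the transgenic (red, left) and control (blue, right) arrays, drawn by mouse and array as in the legend. Open symbols are values at or under the floor of 10.1 (dotted line). For Nrxn3 1438193_at and for Lrrtm3 1434760_at and 1434761_at the red points lie below the blue ones, while the groups overlap or share the floor for the others.

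At their leading probe sets, Nlgn1 and Nlgn2 had lower and Nlgn3 had higher means in transgenic mice, with no call. Nlgn1 (1437160_at) read 299, 243 and 267 on the transgenic arrays, against 361, 369 and 266 on the control arrays. Control mouse 2 array 2 lay within the transgenic range, so the groups overlapped. The mean log2 intensity was 8.11 ± 0.16 in transgenic and 8.39 ± 0.14 in control mice (SD, n = 2 mice each), a difference of -0.29 (95% interval -0.78 to 0.21). Some of the 21 alternatives, such as another variance model or no filter, leave the estimate unchanged by design. Over the others it lay between -0.42 and -0.17. A second Nlgn1 probe set (1421648_at) was at the floor on 5 of 6 arrays and reached 21.8 on control mouse 2 array 2.

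Nlgn2, whose protein recruits the inhibitory scaffold gephyrin, had the most negative differences of the tested probe sets. Its leading probe set (1455143_at) read 351, 473 and 757 on the transgenic arrays, against 621, 645 and 675 on the control arrays. Transgenic mouse 1 was lowest, transgenic mouse 2 array 2 was highest, and the control arrays lay close together between them. The mean log2 intensity was 8.84 ± 0.54 in transgenic and 9.32 ± 0.06 in control mice (SD, n = 2 mice each), a difference of -0.48 (95% interval -1.25 to 0.29). Nrxn3 1438193_at had nearly the same difference (-0.48). The dimmer Nlgn2 probe set (1460013_at) read 30.4, 69.0 and 66.0 on the transgenic arrays, against 61.4, 62.6 and 97.6 on the control arrays, a difference of -0.61 (SE 0.42). On both probe sets transgenic mouse 1 was the lowest array.

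Without transgenic mouse 1 the Nlgn2 differences were -0.097 and -0.038, and without transgenic mouse 2 they were -0.87 and -1.19. Among the arrays without the tag re-LCM (1 transgenic, 2 control) the leading probe set gave 0.20, and among the arrays with it (2 transgenic, 1 control) -0.61. On the array of transgenic mouse 1 the 7 interneuron markers and the 6 tested oligodendrocyte markers also had their lowest mean levels (-0.43 and -0.65 in log2 units relative to the mean of the 6 arrays), as did the 6 tested astrocyte markers (-0.30) and the 4 tested microglia markers (-0.22). By summed intensity this array was lowest for astrocyte and microglia markers only. The interneuron and oligodendrocyte sums were lowest on control mouse 2 array 2 (2227 and 4631, against 2346 and 5320 on transgenic mouse 1). Gad1, the brightest interneuron marker, was highest on transgenic mouse 1 (1912). Control mouse 1 had the highest mean levels for interneuron (0.61), oligodendrocyte (0.77), astrocyte (0.52), microglia (0.39) and vascular markers (0.36). It was also the lowest control array on both Nlgn2 probe sets. Pyramidal and vascular cell markers had their lowest mean levels on control mouse 2 array 2 (-0.23) and transgenic mouse 2 array 1 (-0.45). The part of the markers in the Nlgn2 values was not tested.

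Nlgn3 (1436135_at) read 406, 417 and 422 on the transgenic arrays, against 381, 322 and 395 on the control arrays. The 3 transgenic arrays all lay above the 3 control arrays, by a small margin. On average the log2 intensity was 8.69 ± 0.03 in transgenic and 8.53 ± 0.07 in control mice (SD, n = 2 mice each), a difference of 0.16 (95% interval -0.26 to 0.59). Over the alternatives that could change the estimate it lay between 0.089 and 0.24. The lowest value was control mouse 2 array 1, and the 2 arrays of that mouse differed by 0.30, more than the groups did. The other 2 Nlgn3 probe sets (1456384_at and 1453756_at) were too dim to test, lying between the floor and 28.6 on the transgenic and between the floor and 48.3 on the control arrays. In the fit without the filter they gave -0.78 (SE 0.67) and -0.31 (SE 0.58), opposite in sign to the leading one.

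No tested probe set of an Lrrtm gene was called, and differences between these genes were not tested. Lrrtm1, whose protein binds neurexins and promotes excitatory presynaptic differentiation, had 3 tested probe sets, with differences of 0.019 to 0.23. The leading one (1455883_a_at) read 2728, 3304 and 2313 on the transgenic arrays, against 2494, 2816 and 2378 on the control arrays. Array 1 of mouse 2 was highest and array 2 lowest in both groups, and the groups overlapped. The mean log2 intensity was 11.42 ± 0.01 in transgenic and 11.31 ± 0.04 in control mice (SD, n = 2 mice each), a difference of 0.11 (95% interval -0.31 to 0.53). The second (1452624_at) read 195, 179 and 150.1 on the transgenic arrays, against 161, 172 and 121 on the control arrays, again with array 2 of mouse 2 lowest in both groups (difference 0.23, SE 0.19). Without control mouse 2 array 1 it was 0.36, and without control mouse 2 array 2 it was 0.11. The dimmest (1437746_at) read 107, 125 and 92.4 on the transgenic arrays, against 120.4, 111 and 77.9 on the control arrays, and overlapped (difference 0.019, SE 0.20).

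Lrrtm2, a neurexin-binding protein of excitatory synapses, had lower transgenic means at 3 of 3 tested probe sets. The leading one (1455489_at) read 413, 363 and 459.7 on the transgenic arrays, against 512, 492 and 441 on the control arrays. Transgenic mouse 2 array 2 lay above the lowest control array, so the groups overlapped. The mean log2 intensity was 8.68 ± 0.01 in transgenic and 8.93 ± 0.10 in control mice (SD, n = 2 mice each), a difference of -0.25 (95% interval -0.68 to 0.18). Over the alternatives that could change the estimate it lay between -0.40 among the arrays with the tag re-LCM and -0.018 among those without it. The second (1437787_at) read 49.2, 69.2 and 102 on the transgenic arrays, against 87.3, 71.4 and 62.5 on the control arrays, and its highest and lowest values were both transgenic (difference -0.25). The remaining one (1456637_at) gave -0.40 (SE 0.23), with -0.67 without control mouse 2 array 1 and -0.13 without control mouse 2 array 2. For it the 2 arrays of control mouse 2, at 29.7 and 62.7, differed more than the groups.

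The probe sets of Lrrtm3 also disagreed. Of its 4 probe sets, 3 were designed on the same sequence record. The brightest of these (1434759_at) read 259, 192 and 256 on the transgenic arrays, against 256, 201 and 233 on the control arrays, a difference of 0.024 (95% interval -0.48 to 0.53). The second (1434760_at) read 90.7, 120.1 and 104 on the transgenic arrays, against 129.9, 154 and 129.6 on the control arrays. Here the 3 transgenic arrays all lay below the 3 control arrays, by -0.43 (SE 0.19, limma adjusted p = 0.993, n = 2 mice each), and the value ran from -0.58 to -0.28 over leave-outs of a mouse or array.

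The third Lrrtm3 probe set of that record (1434761_at) was too dim for the filter but above the floor on every array. It read 15.2, 23.6 and 21.1 on the transgenic arrays, against 29.7, 32.1 and 28.7 on the control arrays. Again no transgenic array reached a control array, and the fit without the filter gave -0.70 (SE 0.24, limma adjusted p = 0.813). The remaining one (1440112_at) overlapped between groups, with 107, 106 and 151 on the transgenic arrays, against 106, 89.9 and 153 on the control arrays (difference 0.058). The lower values at 2 probe sets were thus not shared by the other 2.

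Lrrtm4, which binds heparan sulphate proteoglycans, read 933, 1356 and 1111 on the transgenic arrays at its leading probe set (1455937_at), against 1259.6, 1220.2 and 1053 on the control arrays. Transgenic mouse 1 was lowest and transgenic mouse 2 array 1 highest. Mean log2 levels were 10.06 ± 0.28 in transgenic and 10.22 ± 0.11 in control mice (SD, n = 2 mice each), a difference of -0.16 (95% interval -0.71 to 0.39). The second probe set (1437214_at) read 864, 663 and 723 on the transgenic arrays, against 801, 869.8 and 858 on the control arrays, and there transgenic mouse 1 was the highest transgenic array (difference -0.11, SE 0.19). The probe sets of Lrrtm4 thus ordered the transgenic mice in opposite ways.

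**Figure D3:**
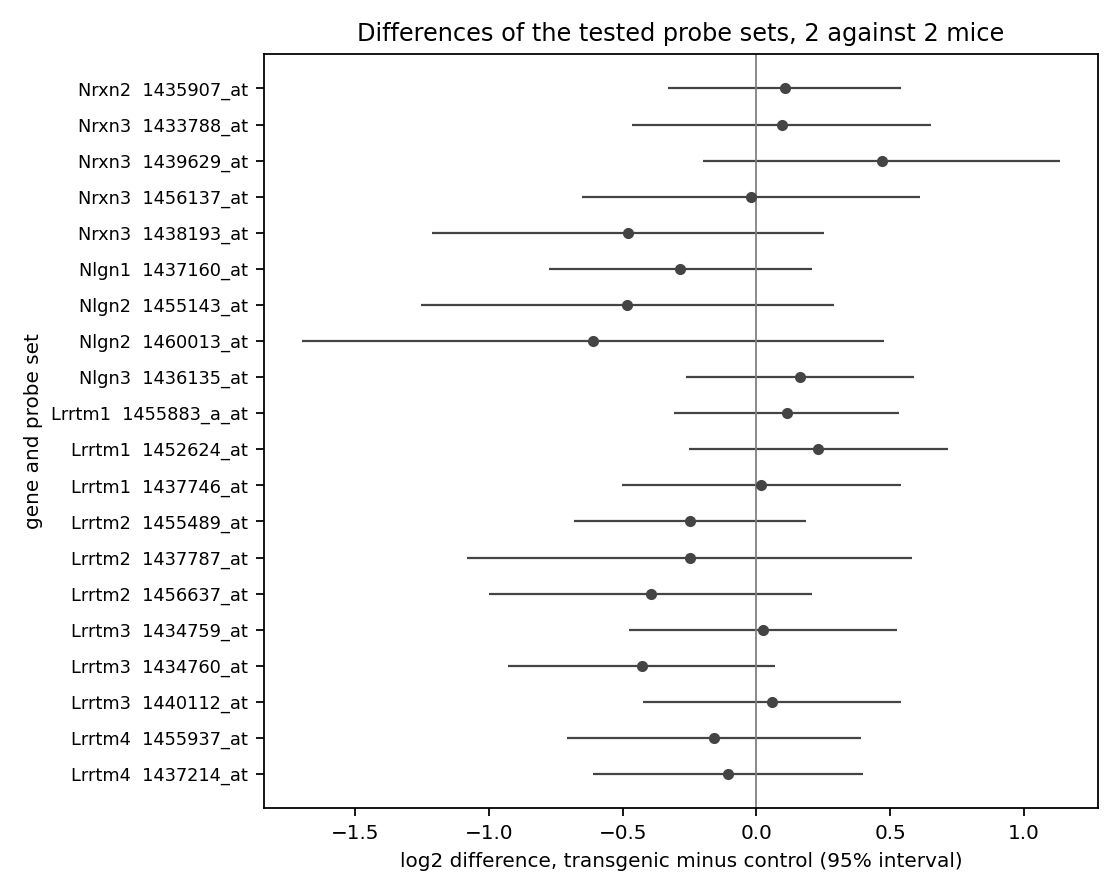
Log2 difference of transgenic minus control (points) with the 95% interval of the limma fit (lines) for the 20 tested probe sets, 2 against 2 mice. Every interval includes 0, and the widest is that of Nlgn2 1460013_at.

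The larger gap between arrays of 1 mouse exceeded the group difference for most members. For 17 of the 20 tested probe sets the group difference was smaller than the larger of the 2 gaps between arrays of the same mouse. For 14 it was smaller than the larger gap between the 2 mice of a group. Lrrtm3 1434760_at was the 1 probe set whose group difference exceeded all 4 gaps. These counts were not made over all probe sets, so they do not set the members or this probe set apart. The larger of 2 gaps between single arrays was set against a difference of averages, which favours the gap. The median size of the group difference was 0.20, beside 0.16 over all probe sets tested, and the median gap between the 2 arrays of a mouse was 0.43 for transgenic mouse 2 and 0.21 for control mouse 2.

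The 3 transgenic arrays all lay above the 3 control arrays for 1 of 20 probe sets (Nlgn3), against 3.83% of all probe sets tested. They all lay below for 2 of 20 (Nrxn3 1438193_at and Lrrtm3 1434760_at), against 4.32% of all. Of the 6 genes with several tested probe sets, 4 had all of them on the same side of 0 and 2, Nrxn3 and Lrrtm3, did not. The 95% interval excluded a 2-fold difference in either direction for 14 of the 20 probe sets, and for 8 of the 9 leading ones, the exception being Nlgn2. These intervals are not adjusted for the number of probe sets and rest on 2 mice per group.

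The genes that surround 3 of the Lrrtm genes were set beside them, a choice made after the members' values were seen. In the RefSeq gene table (GRCm38.p6) Lrrtm1 lies within the bounds of Ctnna2, Lrrtm2 within Ctnna1 and Lrrtm3 within Ctnna3, all genes of alpha-catenins, which link cadherins to actin. Ctnna2 had a difference of -0.11 (SE 0.16) beside 0.11 for the leading Lrrtm1 probe set. Ctnna1 gave -0.15 (SE 0.17) and 0.15 (SE 0.25) at its 2 tested probe sets, beside -0.25 for Lrrtm2. The probe sets of Ctnna3 did not pass the filter.

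Partners of these proteins were described from 4 lists, with 1 probe set per gene. Of 28 extracellular and transsynaptic partners, 24 were measured, 8 higher and 16 lower (median -0.090), and 0 were called by limma. At an unadjusted p under 0.05 there were 3, and the arrays did not overlap for 4 higher and 2 lower genes, beside the shares over all probe sets given above. Nxph4, a neurexophilin, of a family of secreted neurexin ligands, read 23.9, 31.3 and 34.5 on the transgenic arrays, against 63.8, 66.6 and 59.3 on the control arrays, a difference of -1.17 (SE 0.22, limma adjusted p = 0.993). C1ql1, a secreted complement-related synaptic protein whose relatives bind neurexins, read 47.0, 46.6 and 53.3 on the transgenic arrays, against 20.1, 19.4 and 40.8 on the control arrays, a difference of 1.02 (SE 0.23, limma adjusted p = 0.993). Gpc1, a heparan sulphate proteoglycan, read 223, 212 and 167 on the transgenic arrays, against 115, 137 and 156 on the control arrays, a difference of 0.66 (SE 0.21). In each of the 3 the groups did not overlap. Nxph4 and C1ql1 passed the filter, a mean log2 intensity over 4.92, only through the group where they are high (means of 4.81 in transgenic and 5.98 in control mice for Nxph4, and of 5.598 in transgenic and 4.57 in control mice for C1ql1). With the floor at the median intensity Nxph4 gave -0.87 and C1ql1 0.43, and among arrays without the tag re-LCM Gpc1 gave 0.19. Clstn3, a calsyntenin known to bind neurexins, gave 0.49 (SE 0.24) and Tenm3, a teneurin, -0.31 (SE 0.19), again with no overlap.

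**Figure D4:**
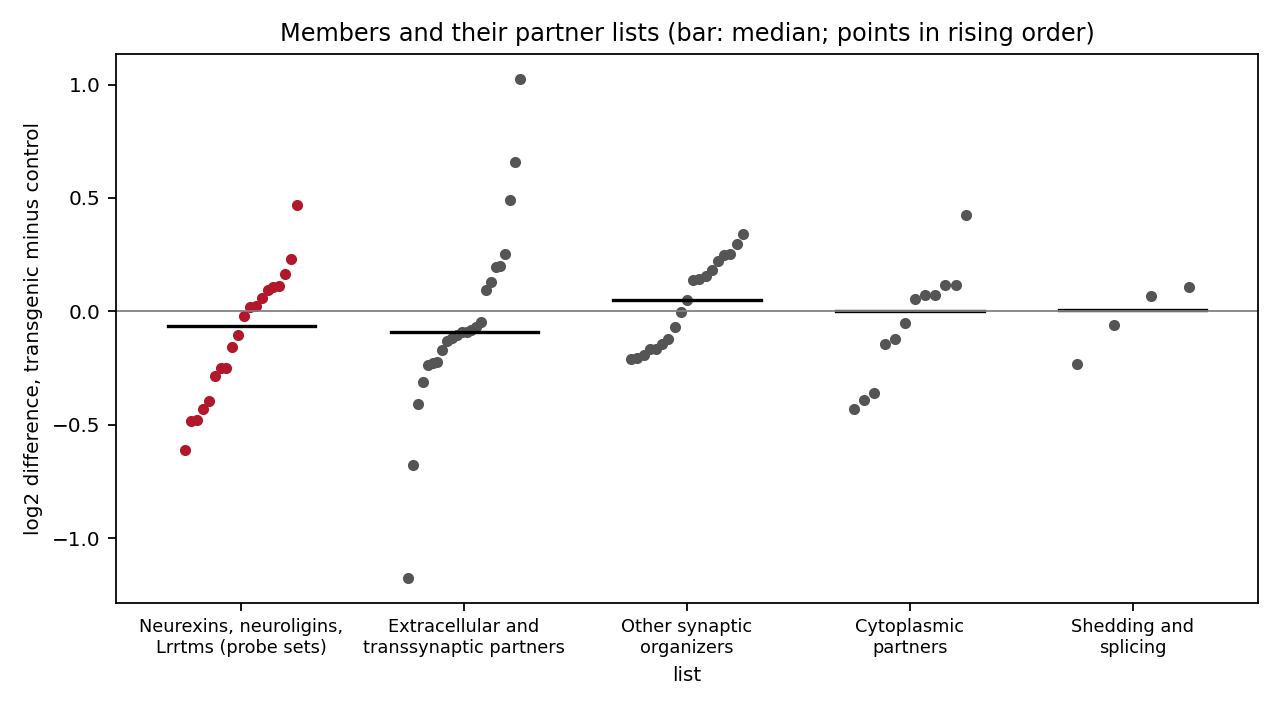
Log2 difference of transgenic minus control for the 20 tested probe sets of the neurexins, neuroligins and Lrrtms (red) and for the measured genes of 4 partner lists (grey), each point 1 probe set or gene and each bar a median. The medians lie between -0.090 and 0.050, and the lowest and highest points are Nxph4 and C1ql1, which passed the filter on dim probe sets only through their higher group.

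The medians of the other lists were closer to 0, and differences between the lists were not tested. Of 27 other synaptic organizers 19 were measured, 10 higher and 9 lower (median 0.050, 0 called). Among them Il1rap, a receptor protein with a synaptogenic role, had a difference of 0.34 (SE 0.19), Slitrk1, a postsynaptic partner of receptor tyrosine phosphatases, one of 0.30 (SE 0.20) and Cadm4, an adhesion protein of the SynCAM family, one of 0.22 (SE 0.17). Slitrk2 gave 0.25 (SE 0.20), and Cadm1, of the same family as Cadm4, gave -0.21 (SE 0.20). Of the 19, the arrays did not overlap for 1 higher and 1 lower gene, against 3.83% and 4.32% of all probe sets tested. Of 16 cytoplasmic partners 12 were measured, 6 higher and 6 lower (median 0.00055, 0 called). For these the arrays did not overlap for 0 higher and 2 lower genes, beside the same shares.

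Lin7c, a scaffold that joins the neurexin-binding kinase Cask in a complex, read 936, 651 and 870.3 on the transgenic arrays, against 1177, 1066 and 1107 on the control arrays (difference -0.43, SE 0.19). Shank3, a scaffold of excitatory synapses, gave -0.36 (SE 0.17), also with no overlap, and Lin7a -0.39 (SE 0.25). Without transgenic mouse 1 Lin7a gave -0.10, and without transgenic mouse 2 it gave -0.68. Apba1, a neuronal adaptor of the same complex, gave 0.42 (SE 0.27), and Dlg3, a scaffold of the PSD-95 family, -0.12 (SE 0.17). Of the 7 genes that shed or splice neurexins and neuroligins 4 were measured, 2 higher and 2 lower (median 0.0041, 0 called). These were Khdrbs2, an RNA-binding protein that regulates neurexin splicing (-0.23, SE 0.19), Khdrbs1 of the same family (0.069, SE 0.20), and the proteases Adam10 (0.11, SE 0.19) and Bace1 (-0.060, SE 0.16).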

How the data were processed

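The 6 deposited columns, 1 per one-colour array, were used, 3 of transgenic and 3 of control mice. They hold linear intensities per probe set, which the authors deposited after scaling each array to a common trimmed mean, as the values show, and the program that made them is not given in the sources used here. No scanner files or detection calls were used.

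The 64 control probe sets were left out. The annotation gave 34945 of the other 45037 probe sets 1 symbol, 932 several and 9160 none. RefSeq matched 34741 single symbols by Entrez identifier and changed 0. Intensities were floored at their pooled 25th percentile and log2 was taken. Probe sets whose mean exceeded the median of all (22518) were tested, each on its own, since these genes have several. Dimmer ones were given by their values or from a fit of all 45037. Arrays of a mouse were averaged, and 2 transgenic were compared with 2 control mice by limma's moderated linear model (limma 3.58.1, R 4.3.3, 2 residual and 2.83 prior degrees of freedom). P-values were adjusted by Benjamini-Hochberg over all probe sets tested and called under 0.05. That arrays come from separate mice rests on the descriptions. The code was tested on simulated data.

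Members, gene lists and marker lists were chosen with earlier results of these data known. The naming rule took all members with every probe set, and from each partner list up to 5 measured genes of smallest p, of which up to 3 were recomputed under the alternatives. The alternatives changed the floor, scaling, filter, probe sets per gene, unit of replication, tag, variance model, weights and the mice or arrays included. The deviations of same-numbered mice from their group means correlated at 0.02 across probe sets, so the mouse numbers were not taken as pairs. The p-values measure only the spread between these samples, and depth has no count here: the number of arrays limits the precision.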

Additional observations from a re-analysis of the deposited data

How the results depend on the processing

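No member was called in any alternative. At an unadjusted limma p under 0.05 there were 2 of 20 with the mouse as a random block (2679 of 22518 over all). There were also 2 of 20 with the tag as a term (824 over all). The count was 1 of 20 with arrays as samples (876), with weights (934) and with a variance trend and robust variance (852). Over all probe sets, 2 were called with a variance trend and robust variance, neither a member, and 0 in the other alternatives. With the mouse number as a replicate block 0 probe sets were called and 1085 of 22518 had an unadjusted p under 0.05, against 995 without it. With the mouse as a random block (2679, estimated correlation -0.53 between arrays of a mouse), the smallest adjusted p of a member was 0.265 with limma. The negative correlation gave smaller standard errors, so this fit is less cautious than the main one. Arrays of the same mouse correlated at a mean of 0.955 over the tested probe sets. The mean was 0.958 for different mice of a group and 0.958 between groups. Arrays of a mouse were thus no more alike than other arrays.

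No value whose direction turned had been called. With the tag as a term these were Nrxn3 1433788_at (-0.072) and 1456137_at (0.039), Lrrtm1 1437746_at (-0.034), Lrrtm2 1437787_at (0.012) and Ctnna1 1448149_at (-0.038). With the random block they were Nrxn3 1456137_at (0.060), Lrrtm2 1437787_at (0.11) and Lrrtm4 1455937_at (0.010), and Nrxn3 1456137_at was 0.023 with arrays as samples and 0.054 with weights. Within tagged arrays Lrrtm1 1437746_at gave -0.058, Lrrtm3 1434759_at -0.20 and Adam10 -0.033. Within the others Nrxn2 1435907_at gave -0.20, Nrxn3 1433788_at -0.28 and 1456137_at 0.60, Nlgn2 1455143_at 0.20, Lrrtm1 1455883_a_at -0.16 and 1437746_at -0.011, Lrrtm2 1437787_at 0.61, Cadm4 -0.061, Lin7a 0.046, Ctnna2 0.14 and Ctnna1 1448149_at -0.20. The cause was not tested. The alternatives for partner and alpha-catenin genes were added after seeing the data.

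Over leave-outs of a mouse or array, the ranges that crossed 0 were -0.017 to 0.23 for Nrxn2 1435907_at, -0.12 to 0.30 for Nrxn3 1433788_at, -0.28 to 0.23 for Nrxn3 1456137_at, -0.016 to 0.24 for Lrrtm1 1455883_a_at and -0.17 to 0.20 for Lrrtm1 1437746_at. They were -0.63 to 0.13 for Lrrtm2 1437787_at, -0.098 to 0.15 for Lrrtm3 1434759_at, -0.13 to 0.25 for Lrrtm3 1440112_at, -0.36 to 0.039 for Lrrtm4 1455937_at and -0.26 to 0.054 for Lrrtm4 1437214_at. For other genes they were -0.055 to 0.27 (Adam10), -0.15 to 0.028 (Bace1), -0.27 to 0.045 (Ctnna2) and -0.13 to 0.42 (Ctnna1 1448149_at). Ranges that stayed on 1 side of 0 but spanned over 1.5 times included 0.18 to 0.51 (Il1rap), 0.12 to 0.47 (Slitrk1) and -0.40 to -0.062 (Khdrbs2). The number of mice limits the precision of every value.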
